A study of Homo sapiens with 18 samples.

Results

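The introns described here are annotated introns longer than 50000 nt in SHEP.tet21n cells, a human neuroblastoma line that carries a MYCN transgene repressed by doxycycline. Members were the intron rows of the deposited splicing table that matched an intron of the GENCODE release 44 annotation (hg38) on both ends, were longer than 50000 nt, and had a mean PSI between 1% and 99% over all 18 libraries. PSI (percent spliced in) is the share of an intron among all introns of its cluster, where a cluster joins introns that share a 5′ or a 3′ splice site. Of 4155 annotated introns over this length, 635 had a mean PSI under 1% and 94 had one over 99%, which left 3426 introns in 1718 genes and 2182 clusters. These were 3426 of 233650 introns in the table and of 152722 introns tested. The 18 libraries were poly(A)-selected RNA-seq from 6 groups of 3 replicates. MYCN was repressed with 2 µg/mL doxycycline (MYCN-) or expressed under the DMSO vehicle (MYCN+), and each state received a control siRNA (SNRPD3+) or either of 2 siRNAs against SNRPD3 (SNRPD3- siRNA 1 and siRNA 2). MYCN-/SNRPD3+ cells are called wildtype. All groups came from this 1 cell line, so doxycycline and MYCN repression cannot be told apart. Introns of MYCN and SNRPD3 themselves were not analysed here.

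SNRPD3 encodes SmD3, a protein of the Sm ring that surrounds the small nuclear RNAs of the spliceosome. MYCN is a transcription factor that is amplified in aggressive neuroblastoma. Long introns are typical of genes for cell adhesion, cytoskeleton and signalling, often lie near the start of a gene, and can hold further promoters whose first exons join the same downstream exon through a shorter intron. A long intron can also compete with introns that define an internal exon within it, in which case use of the long intron skips that exon. Because the PSI values of a cluster sum to 100%, a rise in one of its introns requires a fall among the others.

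The splice sites of the introns on which the results turn are shown first, as read from hg38 on the strand of the gene. Each 5′ site holds 10 bases of exon and 20 of intron, and its capitals mark the 9 bases from 3 before to 6 after the boundary. Each 3′ site holds 25 bases of intron and 5 of exon, and its capitals mark the last 2 bases of the intron. The ABLIM1 intron (chr10:114491879-114545004, minus strand) and a shorter intron that starts at another first exon (chr10:114491879-114526659) share a 3′ site. The EPB41 pair (chr1:28887211-28987447 and chr1:28914769-28987430, plus strand) differs at both ends, and its 3′ sites lie 17 nt apart. The FARS2 intron (chr6:5431173-5545179, plus strand) competes with an unannotated intron (chr6:5498557-5545179), and the RCAN1 intron (chr21:34523711-34614759, minus strand) with the first intron of a shorter transcript (chr21:34523711-34526662).
ABLIM1 long intron, 5′ site: agtcctgGAGGTAAGTggcagaccggctcc
ABLIM1 shorter intron, 5′ site: ctggcctGAGGTAAAGcggacattgcacaa
ABLIM1 shared 3′ site: acgttccctaccttttctcttgcAGgcagg
EPB41 longer intron, 5′ site: cccagccCAGGTGAGCctggaccacctggg
EPB41 longer intron, 3′ site: tttaatagcaacatcatgacaacAGagaag
EPB41 shorter intron, 5′ site: ggagccaCCGGTGAGGcgaggcggcggcgg
EPB41 shorter intron, 3′ site: cccttttctatcttctttttaatAGcaaca
FARS2 long intron, 5′ site: gtcaattCAGGTAAAAaagaatcccacatt
FARS2 unannotated intron, 5′ site: cacgcacCAGGTACTCagtagatgttggct
FARS2 shared 3′ site: caactattttgtttcctaatcacAGctggt
RCAN1 long intron, 5′ site: cctgtgcCGGGTGAGGaccgcgccgggcgg
RCAN1 shorter intron, 5′ site: tgaaaccAGGGTAAGGcttctaatataacg
RCAN1 shared 3′ site: ttttatttttattgttatttttcAGgccaa

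The members ranged from 50009 to 479079 nt, with a median of 77754 nt, and 1036 were longer than 100000 nt. They were the first intron of at least 1 annotated transcript in 48.7% of cases, against 33.2% of the 99814 tested annotated introns up to 50000 nt, and they lay in a 5′UTR in 23.6% against 11.9%. Long non-coding RNA genes held 14.9% of the members and 7.58% of the shorter introns. Median PSI was 23.7% in members and 32.9% in shorter introns. GT and AG ended 99.5% of the members and 98.9% of the shorter introns. Against the 9-base 5′ site consensus CAGGTAAGT, members matched at 6.63 ± 0.943 positions (SD over introns) and shorter introns at 6.34 ± 0.979. Pyrimidines made up 77.4% ± 10.8 and 73.8% ± 11.4 (SD) of the 19 bases before the 3 bases that end the intron. These features are descriptions of the introns and were not tested.

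Shorter introns with a shared splice site competed with most members. In 1805 members (52.7%), shorter introns at both ends enclosed an exon that the long intron spans. A shorter competitor shared only the 3′ site in 553 members and only the 5′ site in 675, both sites without an enclosed exon in 29, and none was present in 364. The arrangement that spans an exon was less frequent among the tested annotated introns up to 50000 nt, at 21.4%.

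The files give no read counts, so the depth behind a PSI value is unknown, and 572 members had a value that recurred in several libraries. Such repeats can occur where a cluster has no reads in a library. Among markers of the line, 9 of 10 mesenchymal genes and 4 of 10 noradrenergic genes had an annotated intron in the table. PSI does not measure expression, so these counts show presence only.

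Of the 7 comparisons fitted, the one with the most called members was between the 9 libraries with MYCN expressed and the 9 with MYCN repressed, averaged over SNRPD3 status. In this MYCN main effect, 55 of 3426 members in 49 genes passed an adjusted p of 0.05 (limma on log2 odds of PSI, Benjamini-Hochberg over all introns), which is 1.61%, against 1.23% of all introns tested. PSI rose in 26 of them and fell in 29. Of all introns tested, 0.681% were called higher and 0.547% were called lower. The absolute change in PSI was between 0.822 and 28.1 percentage points, with a median of 7.93. In 16 of the 55, no library of one MYCN state overlapped the other, but the calls were made on these same libraries. Called or not, 0.525% of members and 0.353% of all introns tested had no such overlap. The median change over all 3426 members was -0.0055 percentage points.

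ABLIM1 encodes an actin-binding LIM domain protein, and one of its introns had the lowest adjusted p among the members. This intron of 53126 nt lies between coding exons and is intron 6 of the canonical transcript. Its PSI was 59.3%, 65.2% and 63.9% in the wildtype libraries and 31.1%, 33.6% and 38.7% in the MYCN+/SNRPD3+ libraries. Over all MYCN-repressed libraries it ranged from 57.0% to 72.1% with a median of 63.9%, and over all MYCN-expressing libraries from 31.1% to 41.7% with a median of 35.6%. The states did not overlap. The fall was -1.64 ± 0.12 (SE) in log2 odds, with an adjusted p of 2.41e-05 by limma. The annotated intron of 34781 nt that ends at the same 3′ site, and begins at a first exon inside the long intron, rose from 26.2% to 50.4% on average (adjusted p = 8.53e-05 by limma). A second, first intron of ABLIM1, of 82328 nt (chr10:114601962-114684289), rose from a mean of 35.4% to 55.2% against a first intron of 29940 nt at the same 3′ site, which fell from 55.9% to 37.6%.

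EPB41, which encodes the membrane skeleton protein 4.1R, exchanged 2 long introns of its 5′UTR. The intron of 100237 nt had a PSI of 57.0% to 73.9% with MYCN repressed and 29.5% to 52.6% with MYCN expressed, and fell by 28.1 percentage points. The intron of 72662 nt, which starts 27558 nt further downstream, ranged from 18.9% to 42.8% and from 44.8% to 66.0%, and rose by 27.9 points. Adjusted p was 0.0018 and 0.00389 by limma. The longer intron joined the downstream one of the 3′ sites printed above, where pyrimidines were 36.8% of the window, and the shorter intron joined the upstream one, at 84.2%.

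**Figure D1:**
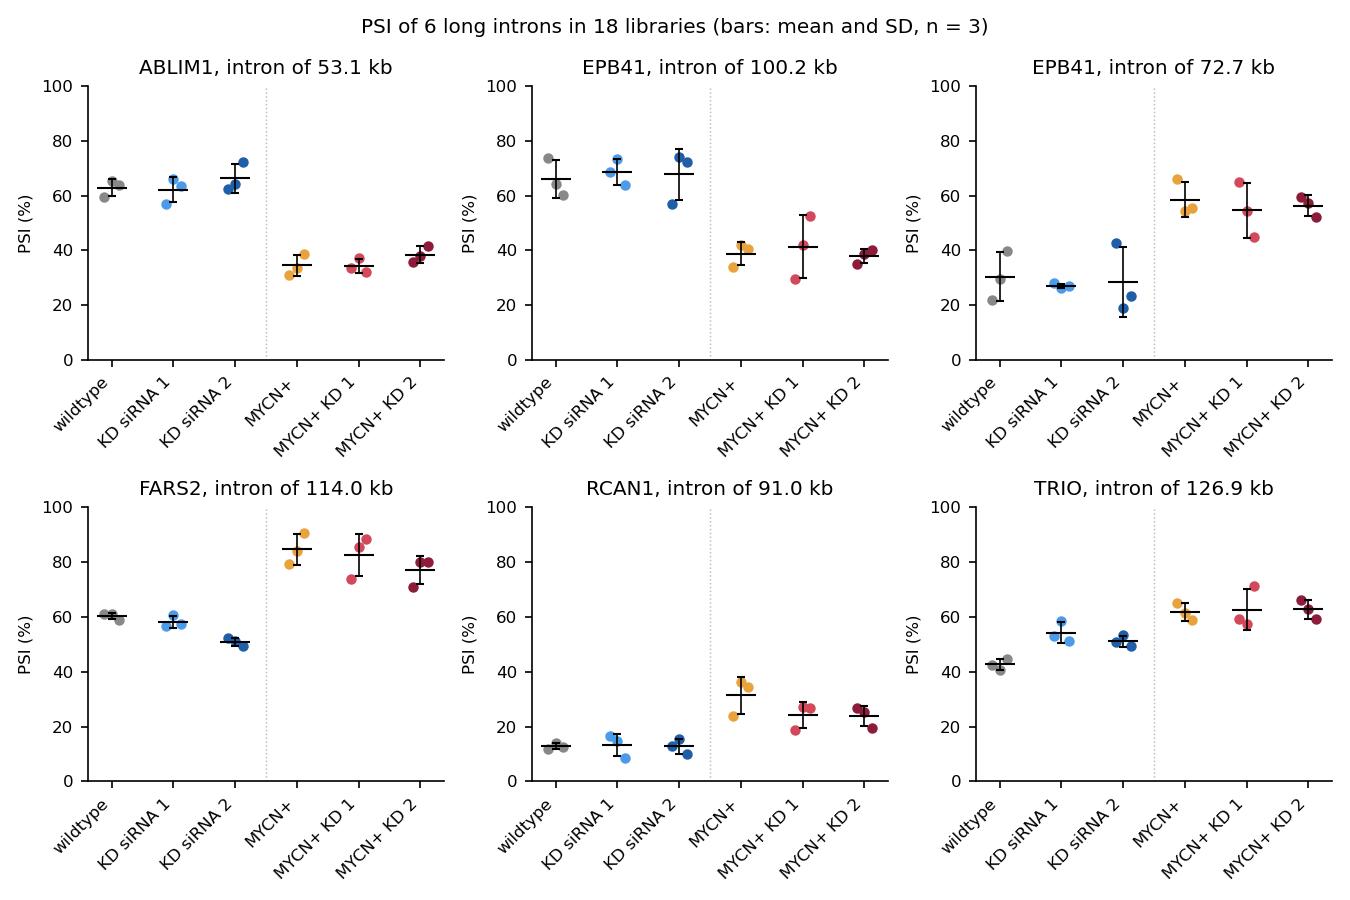
PSI (percent, y axis) of 6 long introns in each of 18 libraries, by group (x axis, KD for SNRPD3 knockdown; the dotted line separates MYCN-repressed from MYCN-expressing groups). Points are libraries, and bars are the mean and SD of 3; in ABLIM1, both EPB41 introns, FARS2 and RCAN1 the MYCN states do not overlap, while TRIO runs from 40.7% to 58.6% with MYCN repressed and 57.6% to 71.2% with MYCN expressed.

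FARS2, the mitochondrial phenylalanyl-tRNA synthetase, rose at an intron of 114007 nt between coding exons. Wildtype libraries had 61.1%, 61.2% and 59.1% and MYCN+/SNRPD3+ libraries 79.2%, 84.1% and 90.7%. The 9 MYCN-expressing libraries ranged from 71.1% to 90.7% and the 9 repressed ones from 49.3% to 61.2%, without overlap. The rise was 1.77 ± 0.20 (SE) in log2 odds (adjusted p = 0.000935 by limma). Its main competitor, an unannotated intron of 46623 nt to the same 3′ site, fell from 26.8% to 7.34%.

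RCAN1, a regulator of the phosphatase calcineurin with alternative first exons, used the longer of its first introns more with MYCN expressed. The intron of 91049 nt rose from a median of 13% (8.70% to 16.6%) to a median of 26.8% (18.7% to 36.3%), with an adjusted p of 0.00464 by limma. The first intron of 2952 nt fell from 84.8% to 71.5% on average. These ranges did not overlap at either intron.

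Further called members lay in genes of varied function. ADGRL2, an adhesion G protein-coupled receptor, fell at an intron of 75032 nt from a median of 62.8% to 32.8%, without overlap of libraries. The G protein subunit GNAQ rose at an intron of 106390 nt from 71.0% to 84.4%, also without overlap, and its only competitor was an unannotated intron of 7120 nt. The ubiquitin ligase NEDD4L rose at an intron of 79565 nt from 43.8% to 61.4%, while an annotated first intron of 23669 nt fell. The scaffold gene TANC2 fell from 81.2% to 64.2% at an intron of 94633 nt. For ANK3, the membrane adaptor ankyrin-G, a first intron of 292825 nt rose from a median of 4.62% to 13.1%, and a first intron of 20679 nt fell from a mean of 78.1% to 63.8%. The SBF2 intron of 100027 nt rose from a median of 50.2% (46.0% to 79.6%) to 78.1% (70.3% to 82.9%), so its libraries overlapped, and it was called in 2 of 18 fits that left out a library.

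Members near either end of the PSI scale also changed. PRKG1, the cGMP-dependent protein kinase, has a member of 314392 nt whose PSI was 99.9% in each of 9 MYCN-repressed libraries. It was 95.6%, 90.4% and 84.9% in the MYCN+/SNRPD3+ libraries and at most 96.3% in any MYCN-expressing library. An unannotated intron of 1398 nt at the same 3′ site made up the difference, at 0.0645% and 7.32% on average. The PRKG1 fall had an adjusted p of 2.6e-05 by limma. PALM2AKAP2, which includes an anchor protein for protein kinase A, rose at an intron of 120087 nt, where the repressed libraries had 5.16% to 7.63% and the expressing ones 10.2% to 14.1% (adjusted p = 0.000351 by limma). The intron of PCBP3, a poly(C)-binding protein, had 16.5% to 23.2% with MYCN repressed, and its expressing libraries ran from 0.222% to 16.7%. For the antisense gene ARHGEF35-AS1 the values ran from 5.09% to 43.2% and from 0.22% to 17.1%, so the groups overlapped.

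**Figure D2:**
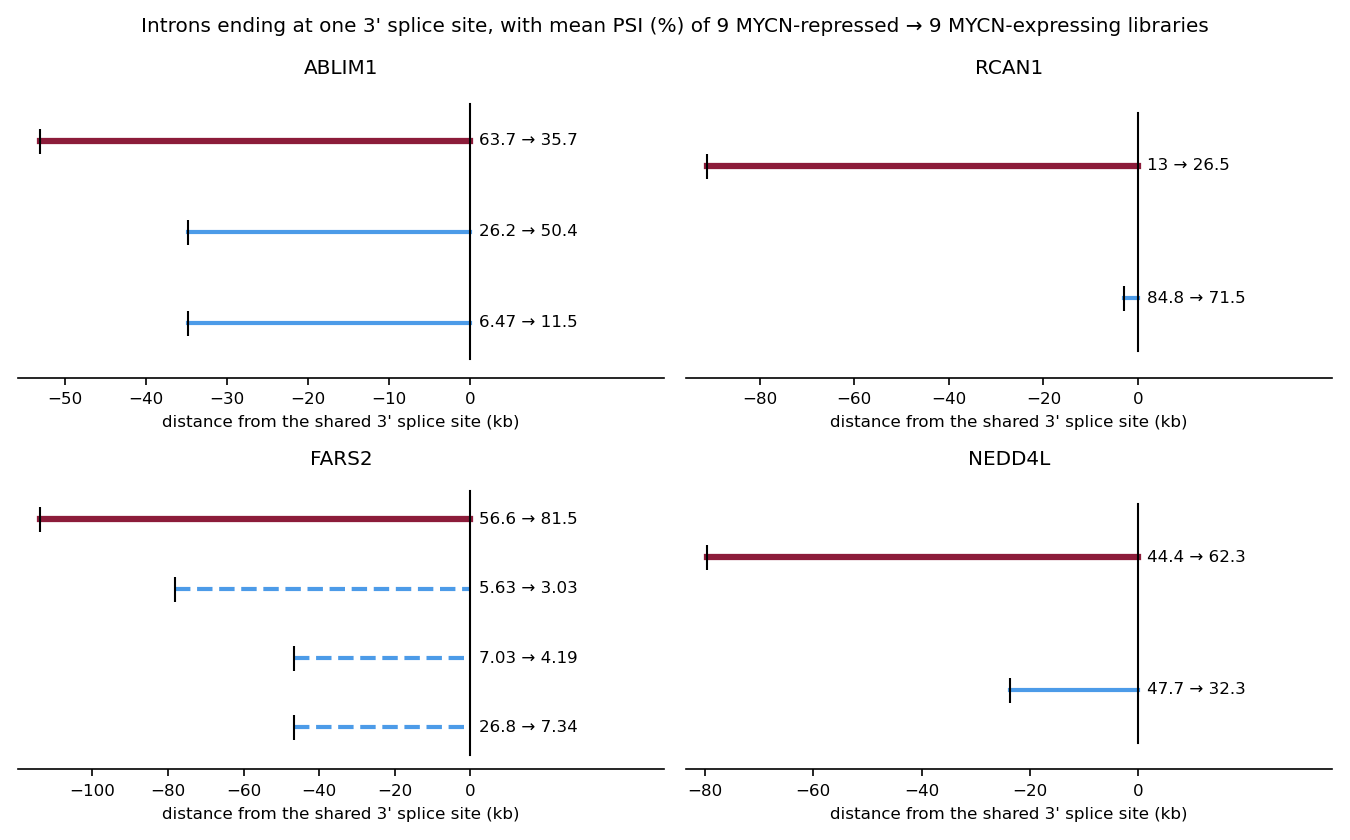
Introns that end at 1 shared 3′ splice site in ABLIM1, RCAN1, FARS2 and NEDD4L, drawn as lines from their 5′ end (x axis, distance from the shared site in kb; competitors with a mean PSI of at least 4% are drawn). Dark red marks the long intron, blue its competitors, dashes an unannotated intron, and each label gives mean PSI in the 9 MYCN-repressed and then the 9 MYCN-expressing libraries; in each of the 4 genes the long intron and its competitors move in opposite directions.

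Competing first exons were counted among the members only, and not among shorter introns, called or not. In 29 of the 55, a shorter annotated first intron shared the 3′ site of the member, as it did in 878 of all 3426 members (25.6%). Called members were a first intron of some transcript in 65.5% of cases, and all members in 48.7%. By arrangement, 28 of the 55 spanned an exon, as did 52.7% of all members. Of the others, 15 had a competitor at the 3′ site only, 8 at the 5′ site only and 4 had none. Besides ABLIM1 and EPB41, the genes ST7, SEPTIN9 and UBE2H each had called long introns that moved in opposite directions. ST7 fell from 33.6% to 25.1% at an intron of 146070 nt and rose from 11.2% to 19.1% at one of 84747 nt. SEPTIN9, a cytoskeletal GTPase, fell from 19.3% to 12.4% at 94861 nt and rose from 57.8% to 68.6% at 81710 nt, where the rise was called in 6 of 18 fits that left out a library. UBE2H, a ubiquitin-conjugating enzyme, fell from 98.4% to 96.3% at 71531 nt and rose from 1.59% to 3.72% at 70306 nt. These introns are the main pair of their cluster, at -0.89 and 0.89 in log2 odds, so the 2 calls reflect 1 change.

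A shorter competitor was present for 51 of the 55 called members, and its summed PSI moved the opposite way in 37. At least 1 competitor was itself called in the opposite direction in 22. An opposite move is required within a cluster as a whole, but the introns that share no site with the member also take part in the sum. In 14 of the 51 the sharing competitors moved the same way as the member, as for SMYD3, where the member fell by 4.34 percentage points and its competitors by 3.21.

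Among libraries with the control siRNA, the comparison of MYCN+/SNRPD3+ with wildtype called 3 members, against 0.0543% of all introns tested. These were ABLIM1, PRKG1 and PALM2AKAP2, and 280 members (8.17%) had an unadjusted p under 0.05, as did 6.19% of all introns tested. The comparison has 3 libraries a side and shares its wildtype and MYCN+ libraries with the main effect. A TTLL11 intron of 103260 nt, in a tubulin polyglutamylase gene, did not pass, with 8.97%, 15.3% and 9.95% in wildtype and 63.5%, 41.0% and 85.5% in MYCN+/SNRPD3+ libraries. These did not overlap, and the group means were 11.4% ± 3.4 and 63.3% ± 22 (SD, n = 3).

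The comparison of both changes together, MYCN+/SNRPD3- cells against wildtype, called 20 members in 20 genes, or 0.584%, beside 0.559% of all introns tested. PSI rose in 11 and fell in 9, and of all introns tested 0.35% were called higher and 0.209% lower. In all 20 the 6 MYCN+/SNRPD3- libraries lay outside the 3 wildtype libraries, but the calls were made on these same libraries. Called or not, 6.8% of members and 6.53% of all introns tested were separated in this way. Of the 20, 13 were also called in the MYCN main effect, which shares these libraries. Leaving out any of the 3 wildtype libraries left 5 calls, and leaving out MYCN+/SNRPD3- siRNA 2 replicate 3 left 7. The count over all introns fell alike, from 854 to between 202 and 215 without a wildtype library and to 357 without the other. ABLIM1, PRKG1 and MIR4435-2HG, 3 of the 20, were called in each of 18 fits that left out a library. With only the compared groups in the fit, MIR4435-2HG had an adjusted p of 0.0597 by limma. At the same threshold, 2 of the 20, ABLIM1 and PRKG1, were called under every other setting of the fit that included them. PRKG1, with a mean PSI of 95.9% and 17 different values, was not in the fits limited to mean PSI 0.05 to 0.95 or to introns with 18 different values.

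At COA1, groups with MYCN or knockdown alone had means between those of wildtype and of both changes together. COA1, a gene for a mitochondrial complex assembly factor, has a 5′UTR intron of 80776 nt (chr7:43648653-43729428) that spans several alternative exons. Its PSI was 33%, 35.8% and 30.0% in wildtype libraries and between 45.6% and 59.8%, with a median of 51.6%, in MYCN+/SNRPD3- libraries. Means were 40.0% and 38.6% for the 2 siRNAs and 39.4% for MYCN. The rise was 1.10 ± 0.17 (SE) in log2 odds, with an adjusted p of 0.014 by limma. COA1 was called in 16 of the 18 fits that left out a library, and its adjusted p was 0.134 with only the compared groups. MIR4435-2HG, a long non-coding RNA, rose at an intron of 135399 nt from 7.41%, 6.88% and 7.95% to a range of 12.4% to 18.6% (adjusted p = 0.00643 by limma). Its MYCN+/SNRPD3+ mean was 9.65% ± 1.2 and its knockdown means were 10.4% ± 1.4 and 7.87% ± 0.20 (SD, n = 3).

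TRIO rose at its first intron of 126942 nt (chr5:14143883-14270824). Wildtype libraries had 42.6%, 40.7% and 44.8%, and MYCN+/SNRPD3- libraries had 57.6% to 71.2% with a median of 61.1%. Knockdown with MYCN repressed gave 54.3% ± 3.8 and 51.2% ± 2.0 and MYCN alone 61.8% ± 3.1 (SD, n = 3). The adjusted p was 0.0178 by limma, and 0.133 with only the compared groups, and TRIO was called in 15 of the 18 fits that left out a library. MARCHF8, a membrane-bound ubiquitin ligase, rose at a first intron of 60945 nt from 27.3%, 31.9% and 32.7% to 40.5% to 48.6%, while the MYCN+/SNRPD3+ mean was 29.7% ± 1.4. ARID5B, a DNA-binding chromatin cofactor, rose from 13.8%, 11.1% and 13.6% to 21.7% to 41.2% at an intron of 50566 nt, and the mean of a first intron of 1404 nt at the same 3′ site changed by -21.4 percentage points. In this comparison, MARCHF8 and ARID5B were called in 6 and 4 of the 18 fits that left out a library. Knockdown with MYCN repressed gave MARCHF8 means of 39.2% and 36.6% and ARID5B means of 19.9% and 15.3%. The knockdown main effect of MARCHF8 had an adjusted p of 0.0881 by limma. ARID5B had 24.4%, 25.7% and 21.8% in MYCN+/SNRPD3+ libraries. ARID5B was also called in the MYCN main effect (adjusted p = 0.0207 by limma), and there in each of the 18 fits.

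Some calls were on introns with large spread within a group or with values near 0 in another. The TAF7 intron of 60026 nt had 97.5%, 44.4% and 6.49% in wildtype and at most 0.465% in each of the other 15 libraries. Its mean PSI of 8.54% passed the lower limit of 1% only through the wildtype libraries. The filter and the TAF7 call thus rest on the same 3 libraries. For BACH2, a transcription factor gene, the intron of 54027 nt had 21.3%, 16.6% and 8.43% in wildtype, 12.3% ± 4.6 with siRNA 1 and 0.108% ± 0.0042 with siRNA 2 (SD, n = 3) in MYCN-repressed cells, and 10.8% in 1 of the 3 MYCN+/SNRPD3+ libraries. The RERE intron of 135962 nt, in a nuclear co-repressor gene, had at most 0.244% in wildtype and 5.58% to 20% in MYCN+/SNRPD3- libraries, and the other 3 groups had means of 9.65% to 14.9%. TAF7, BACH2 and RERE were called in 10, 16 and 2 of the 18 fits that left out a library. DLEU1, a long non-coding RNA, did not pass, with 0.263% to 0.919% in wildtype and 11.5% to 97.9% in the 6 MYCN+/SNRPD3- libraries.

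SNRPD3 knockdown alone called no member. The count was 0 with MYCN repressed, where 0.0138% of all introns were called, and 0 with MYCN expressed, where 0.0196% were. It was 0 in the knockdown main effect over both MYCN states, at 0.0242% of all introns, and 0 for the interaction of knockdown with MYCN, at 0.0177%. The numbers of members with an unadjusted limma p under 0.05 were 203, 282, 334 and 142 of 3426, or 5.93%, 8.23%, 9.75% and 4.14%. Over all introns tested these shares were 4.69%, 7.06%, 7.8% and 3.98%. No second tool was run on the PSI values.

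As a group, the long introns shifted upwards after knockdown by less than 1 percentage point. The median PSI difference was 0.336 points with MYCN repressed and 0.375 with MYCN expressed, and 56.3% and 56.4% of members were higher. Over all introns tested these medians were 0.0189 and 0.00054 points. Across length classes of annotated introns, the median of the knockdown main effect was -0.241 up to 100 nt, -0.14 from there to 1000 nt, -0.0801 to 5000 nt, 0.0595 to 20000 nt, 0.11 to 50000 nt, 0.272 to 100000 nt and 0.454 points beyond. The MYCN main effect had class medians between -0.219 and 0.0565 points. Introns of 1 cluster share their sum, so classes are not independent of each other and no test was run on them.

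Members that span an exon had a median knockdown main effect of 0.633 points, and 64.9% were higher. The median was 0.586 in the 29 with competitors at both ends and no exon between, 0.184 points in members with a competitor at the 5′ site only, -0.333 at the 3′ site only and -0.195 with no such competitor. Introns that span an exon had a positive median in each shorter class that holds any, from 0.144 points between 100 and 1000 nt to 0.361 between 20000 and 50000 nt, and other introns up to 50000 nt had -0.166. Their share of the class was 5.75% between 100 and 1000 nt, 20.1% to 5000 nt, 37.7% to 20000 nt, 45.4% to 50000 nt, 52.8% to 100000 nt and 52.5% beyond. Length and arrangement thus varied together up to 100000 nt, and beyond it the share was no higher. Introns that span no exon had a median of -0.197 points with 45.3% higher between 50000 and 100000 nt. Beyond 100000 nt they had 0.231 points with 54.9% higher. Whether length or arrangement mattered apart from the other was not tested.

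**Figure D3:**
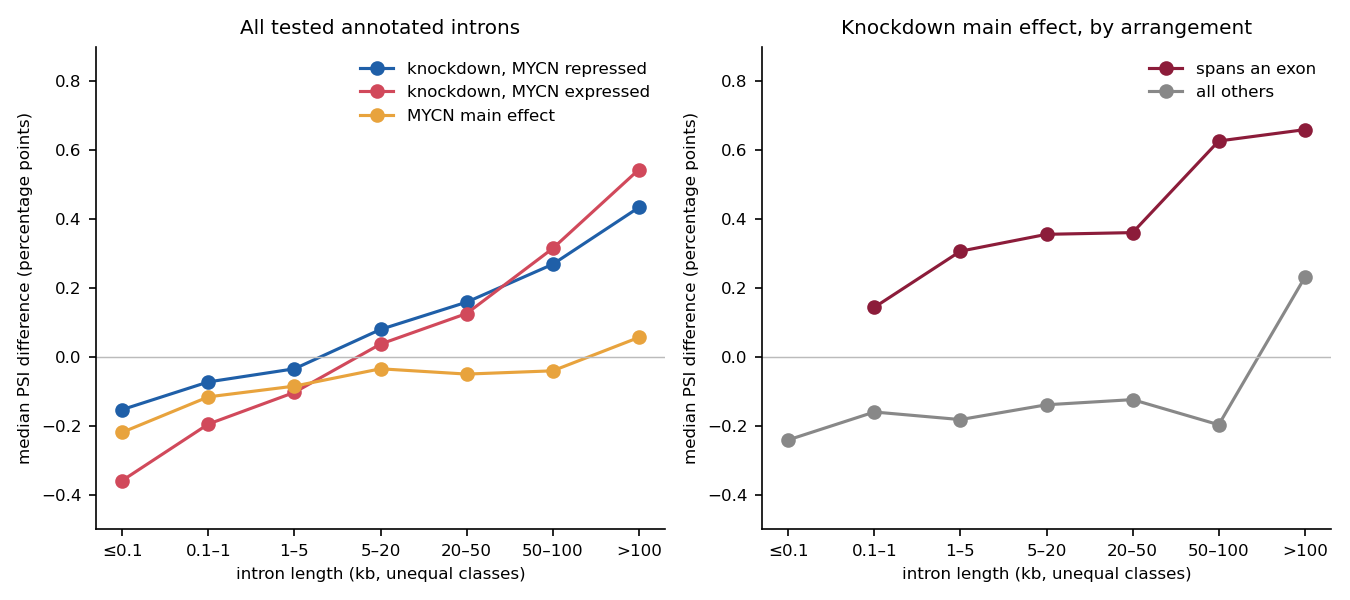
Median difference in PSI (y axis, percentage points) of tested annotated introns by length class (x axis, kb). The left panel shows 3 comparisons and the right panel the knockdown main effect for introns that span an exon and all others; the knockdown medians increase with length, and those of exon-spanning introns are positive in each class with members, at 0.627 and 0.66 in the classes above 50 kb.

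Library by library, the share of the long intron against its shorter competitors with a common splice site was 52.47% to 53.37% in the 6 control siRNA libraries and 53.66% to 56.33% in the 12 knockdown libraries, as a mean over introns. The ranges did not overlap. Group means were 52.94% ± 0.31 in wildtype, 54.35% ± 0.19 and 53.9% ± 0.21 with siRNA 1 and 2 in MYCN-repressed cells, 52.87% ± 0.46 in MYCN+/SNRPD3+ and 54.72% ± 1.4 and 53.87% ± 0.18 with siRNA 1 and 2 in MYCN-expressing cells (SD, n = 3). MYCN+/SNRPD3- siRNA 1 replicate 3 stood apart at 56.33%. The difference between knockdown and control libraries was 1.31 points and 1.11 without that library. Mean PSI of the exon-spanning members was 29.89% in controls and 31.05% after knockdown, and 1 of the 12 knockdown libraries lay within the control range. Mean PSI over all members was 34.39% and 35.1%, and over tested annotated introns up to 50000 nt of any arrangement 37.46% and 37.4%. Exon-spanning introns up to 50000 nt also rose after knockdown, with a median main effect of 0.321 points and 61.0% higher. Depth in each library is unknown, and its part in these means was not tested.

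Among single introns, 4 members had no overlap between the 12 knockdown and 6 control libraries, or 0.117%, against 0.0642% of all introns tested. None passed the adjusted threshold. MRPS30-DT, a divergent non-coding transcript, had 4.16% to 12.3% in controls and 14.3% to 35.7% after knockdown at an intron of 62603 nt (chr5:44746039-44808641), a difference of 1.56 ± 0.30 (SE) in log2 odds with an adjusted p of 0.152 by limma. ADK, the adenosine kinase gene, had 1.06% to 1.37% and 1.39% to 3.39% at an intron of 80865 nt (adjusted p = 0.151 by limma). ITGB3BP, which encodes a centromere protein, had 2.15% to 2.80% and 2.92% to 5.04% at 53559 nt. For ITPKB, an inositol trisphosphate kinase, means were 79.9% in controls and 88.5% after knockdown at an intron of 86755 nt, and the ranges overlapped.

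Members were also counted in lists of genes known for long introns or for roles in this tumour. Over all introns tested, 1.23% were called for the MYCN main effect and 0.547% were called lower, and the counts in the lists are to be read beside these shares. In 112 members of kinase, phosphodiesterase and receptor signalling genes, 1 fell with MYCN (PRKG1), with a median MYCN main effect of -0.0134 percentage points. Transcription factor and cofactor genes held 165 members, of which 1 fell (BACH2), and RERE rose in MYCN+/SNRPD3- cells. Cell cycle and chromosome segregation genes held 57, of which 1 fell, a STAG2 intron of 60500 nt in a cohesin subunit gene, with a change of -1.78 points and a call in 4 of the 18 fits that left out a library.

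No member was called in 4 further lists in any of the 7 comparisons by limma. At common fragile sites, where very long genes are prone to breaks, 66 members in 18 genes had 4 with an unadjusted p under 0.05 for MYCN, and a median of -0.102 points. Their values varied widely within groups. The LPP intron of 64392 nt had 32.4%, 24.7% and 16.4% in wildtype and 17% to 48.6% in MYCN+/SNRPD3- libraries, and the WWOX intron of 102994 nt had at most 0.953% in wildtype and 0.605% to 98.2% there. Genes linked to neuroblastoma held 39 members with 3 under that p, adhesion and matrix genes 91 with 9, and RNA-binding and splicing factor genes 56 with 7. Of all introns tested, 11.7% had such a p, and of all members 13.8%. For TENM3, a teneurin adhesion gene, an intron of 80469 nt had 33.2%, 20.9% and 44.5% in wildtype and 35.8% to 47.9% in MYCN+/SNRPD3- libraries, which overlapped. NOVA1, a neuronal splicing regulator, had 64.7%, 81.4% and 71.4% and then 78.3% to 93.1% at an intron of 115266 nt, and also did not pass.

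The longest members were in NRXN3 (479079 nt), MAGI2 (445813 nt), IMMP2L (428272 nt), CDH18 (416201 nt) and MAGI1 (415907 nt), genes for synaptic, junction and cadherin proteins and a mitochondrial peptidase. None was called. CDH18 had group means of 2.07% to 4.23%, and MAGI1 of 92.9% to 99.9%. IMMP2L had 96.8% in 1 wildtype library and a wildtype mean of 32.5%, with 14 different values in 18 libraries. At the length limit, AMBRA1 (50009 nt) and B3GALT1 (50017 nt) lay just inside, with group means of 45.4% to 48.0% and 63.3% to 98.8%. GATAD2A (49992 nt) and NFASC (49931 nt) lay just outside, with group means of 1.17% to 3.07% and 0.378% to 32.4%.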

How the data were processed

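RNA-seq libraries (TruSeq Stranded mRNA, 6 groups of 3) were aligned by the authors with STAR 2.5.0a to hg38, and introns were counted and clustered with leafcutter; SAMtools 1.3.1 is also named in the submitters' processing notes. The values deposited by the authors are PSI fractions, an intron's share of its cluster in each library. They are never exactly 0 or 1; how this arose is not given in the sources used here, and read depth is unknown. A second deposited table holds the authors' own differences and adjusted p-values between groups and was not used.

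Each intron was matched to GENCODE release 44 on hg38 by both ends and took its gene and strand from it. Percent values are fractions times 100. PSI was fitted in limma 3.58.1 (R 4.3.3) as log2((PSI + 0.01)/(1 - PSI + 0.01)), with all 6 groups in 1 fit, 152722 introns of mean PSI 0.01 to 0.99, no block, Benjamini-Hochberg adjustment within each of 7 comparisons and a threshold of 0.05. Knockdown averages the 2 siRNAs. Differences in percentage points are between means of group means. The script was tested on simulated data. Tables, sequences and figures were made in Python 3.11.15 (pandas 2.3.3, pysam 0.24.0, matplotlib 3.10.9).

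Named introns were up to 12 called members per comparison by PSI difference, 1 per gene (smallest p); up to 6 that did not pass, with unadjusted p under 0.01, no overlap of libraries and at least 15 different values; the 5 longest; up to 4 per gene list; and those next to the length limit. Other called members and the paired introns named were chosen after their values were seen. The members and lists were chosen with earlier results of these data known. 1 of the gene lists is not reported here. Labels do not say whether replicates were separate cultures, while the authors' figure legend calls them independent biological replicates. The p-values measure the spread between these samples of 1 cell line. Alternatives covered the offset, PSI limits, length limit, samples fitted, block, prior, threshold, siRNA, transcript class and each library left out.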

Additional observations from a re-analysis of the deposited data

How the results depend on the processing

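No member called in the MYCN main effect or in MYCN plus knockdown against wildtype changed direction in that comparison under the alternatives run. The same cannot be said of named introns that did not pass. IMMP2L, for example, had 96.8%, 0.316% and 0.28% in wildtype, so its difference from wildtype rested on 1 library. The 55 calls for the MYCN main effect became 23 at an adjusted p under 0.01, 100 for introns over 30000 nt and 15 over 100000 nt, and ranged from 42 to 56 when 1 library was left out, with 36 of the 55 called in each of these 18 fits. The 20 calls for MYCN plus knockdown against wildtype became 34 with the replicate number as a block, 12 with trended and robust variance, 9 with siRNA 1 alone, 4 with siRNA 2 alone, 11 with only the compared groups, 3 at an adjusted p under 0.01, 45 over 30000 nt, 9 over 100000 nt and 35 among introns with 18 different values (added after seeing the data). Without 1 library they ranged from 5 to 20: 5 without any wildtype library, 7 without MYCN+/SNRPD3- siRNA 2 replicate 3, and 11, 12, 13 and 13 without MYCN+/SNRPD3- siRNA 1 replicate 3, siRNA 2 replicate 1, MYCN+/SNRPD3+ replicate 2 and MYCN-/SNRPD3- siRNA 2 replicate 3. MYCN alone had 15 with only the compared groups, 6 over 30000 nt and 2 to 4 without 1 library. Knockdown with MYCN repressed had 1 with the block, 3 with only the compared groups and 0 to 2 without 1 library. Knockdown with MYCN expressed had 1 with only the compared groups, 1 over 30000 nt and 0 to 2 without 1 library. The knockdown main effect had 1 with the block, 1 with a block within MYCN status (added later) and 0 to 1, and the interaction 0 to 2, without 1 library. The causes were not tested. Averaged over introns, same-numbered replicates did not deviate together (mean r = 0.00615 over 45 pairs, 0 above 0.1, against -0.00307 for other pairs). The numbers were therefore not taken as pairs, but whether some introns deviated together was not tested. Blocking on them raised the calls over all introns from 854 to 1346 for MYCN plus knockdown against wildtype. For the MYCN main effect the calls rose from 1875 to 2154. In the other comparisons they fell, as from 37 to 25 for the knockdown main effect. Median PSI differences moved by less than the spread between replicates under each alternative run. That spread is too wide a limit to show whether the medians were stable. The median knockdown main effect was 0.318 points, and the pooled replicate SD of the members' median PSI was 0.647 points. The knockdown difference in the long intron's share was 1.02 against any shorter intron of the cluster, 1.45 against annotated competitors and 1.11 to 1.4 without 1 library.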
